A study of Oryza sativa with 20 samples.

Results

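Rice (Oryza sativa) shoots that had been heated were compared at 2 h and at 10 h, during their recovery from a short heat shock; the groups were chosen by their labels, not by any measured value. All plants were wild type, grown in a greenhouse and 2 weeks old. The heated plants had their shoots held upside down in water at 42 °C for 10 min, and then recovered at 30 °C for 1 h 50 min (the 2 h group) or for 9 h 50 min (the 10 h group). Control plants were inverted and immersed in the same way in water at 22 °C, moved to 30 °C, and sampled at the same times. Inversion, immersion and the move to another temperature were therefore shared by both arms, and the 22 °C bath was itself cooler than the growth temperature. Each group held 2 libraries of 3 pooled shoots, so the heated shoots at 2 h and 10 h make up 4 of the 20 libraries of the series, and the matching controls another 4.

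In plants, heat unfolds proteins, and heat stress transcription factors answer by binding the promoters of chaperone genes. Small heat shock proteins hold unfolded proteins, HSP100 disaggregases pull aggregates apart, and HSP70 and HSP90 refold and mature the released chains. Once the heat has passed, this programme is shut down and its transcripts decay. Over the same hours a leaf also follows its circadian clock, whose components repress each other in turn, and light-harvesting genes are among the best known outputs of that clock. A difference between 2 h and 10 h in heated shoots therefore can hold both recovery and time of day, and is given here beside the controls of the same 2 times. The clock time of sampling is not stated in the labels.

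The deposited values were FPKM (fragments scaled by transcript length and by the mapped fragments of a library). The authors gave 1 value for each group of 2 libraries, so levels are printed without an SD and no test between 2 h and 10 h was possible. For this reason "rose" and "fell" here mean only that 2 deposited values differed by at least 2-fold after adding 1 FPKM to each, a scale that shrinks the change of low genes. For each gene ID the row with the highest mean was used, and 22568 of 37248 IDs, whose FPKM averaged 1 or more across all 10 groups and whose values were free of internal conflict, were compared. Depth per library is unknown. The summed FPKM was 812316 in the heated shoots at 2 h and 852717 at 10 h, and 698681 and 718459 in the controls. In whole shoots, fewer cells of a type and less RNA per cell cannot be told apart. The files do not pair gene IDs with names and the reference table matched 0 of them, so gene groups are described through 9 lists of IDs written down from background knowledge. Membership of these lists was not checked against an annotation, and single members are given by their values only.

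More genes moved between 2 h and 10 h in heated than in control shoots, by counts that carry no test. In heated shoots 3338 genes rose and 3449 fell, together 30.1% of those compared. In the controls 1444 rose and 1447 fell, together 12.8%. The median gene was level in both arms, with a log2 change of 0.02 in heated and 0.05 in control shoots. The central 50% of genes lay between -0.57 and 0.61 in heated shoots and between -0.32 and 0.39 in controls. The lower tail set the heated arm apart further: 512 genes fell at least 8-fold there against 114 in the controls, and 92 against 14 fell at least 32-fold. Rises of at least 8-fold numbered 115 in heated and 51 in control shoots, and rises of at least 32-fold numbered 9 in each.

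Of the 6787 genes that rose or fell in heated shoots, 4827 (71.1%) stayed within 2-fold in the controls, 1871 (27.6%) moved the same way in both arms and 89 (1.31%) moved in opposite directions. Read from the controls, 992 of the 1444 genes that rose with time also rose in heated shoots (68.7%), and 879 of the 1447 that fell also fell there (60.7%). The median change of the control risers was 1.34 in controls and 1.52 in heated shoots. For the control fallers it was -1.42 and -1.29. Across the 22568 genes, which are not independent replicates and were drawn from the same libraries within each arm, the heated and control changes had Pearson's r of 0.56 and Spearman's rho of 0.57.

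**Figure D1:**
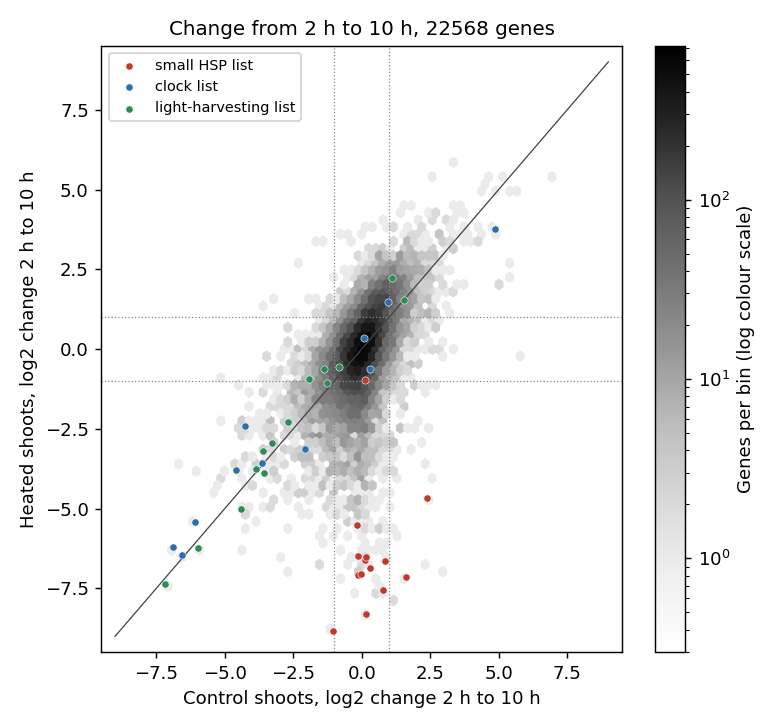
Log2 change from 2 h to 10 h in control shoots (x axis) and heated shoots (y axis) for the 22568 genes compared, as counts per hexagonal bin on a log colour scale, with dotted lines at 2-fold and a diagonal of equal change. Most small heat shock protein IDs lie far below the diagonal near a control change of 0, while the clock and light-harvesting lists lie near the diagonal. The small heat shock protein ID that did not fall lies nearer the diagonal. Control changes on that list run from -1.07 to 2.38.

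The 2 largest falls began near the top of the heated 2 h values. OS01G0184100 stood at 7062.76 FPKM in heated shoots at 2 h and at 14.34 FPKM at 10 h, a log2 change of -8.85, while the controls read 10.37 and 4.43 FPKM. OS03G0266900 went from 6706.93 to 20.45 FPKM, a log2 change of -8.29, with 5.89 and 6.76 FPKM in the controls. At 10 h both IDs read above their controls, and the authors' deposited table called the second higher (its q is printed as 0.0) and not the first (q = 0.18).

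Both largest rises were shared by the controls in direction. OS05G0375400 went from 5.61 to 406.25 FPKM in heated shoots, a log2 change of 5.95, and from 10.67 to 110.05 FPKM in controls. By the authors' deposited table it was lower in heated shoots at 2 h (q = 0.04) and higher at 10 h (a q of 0.0 as printed). OS02G0685200 went from 1.8 to 129.36 FPKM in heated shoots, a log2 change of 5.54, and from 0.44 to 176.35 FPKM in controls. Here the controls covered the wider range.

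The same asymmetry ran through the 100 largest changes on each side. Of the 100 largest falls in heated shoots, each by at least 4.88 on the log2 scale, 30 also fell in the controls and 8 rose. Of the 100 largest rises, each of at least 3.11, 85 also rose in the controls and 2 fell. Over all genes compared, 6.4% rose and 6.41% fell in controls, so the 8 control rises beside the largest falls are near that share. The median control change was -0.15 beside the falls and 2.46 beside the rises. The 100 largest falls had a median of 267.16 FPKM at 2 h and 3.86 FPKM at 10 h in heated shoots, against 4.31 and 1.92 FPKM in controls. Of them, 20 stood on the 4 chaperone lists described next, which hold 33 IDs and were chosen with earlier results of these data known.

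Transcripts of the small heat shock protein list were far lower at 10 h. All 14 listed IDs passed the filter on low values, 5 of them only through their heated values, since their controls averaged below 1 FPKM. The median in heated shoots went from 2483.73 FPKM at 2 h to 20.04 FPKM at 10 h, beside 2.65 and 3.47 FPKM in controls. In heated shoots 13 of the 14 fell, where 15.3% of all genes compared did, and the median log2 change was -6.76. In controls 2 rose and 1 fell, against 6.4% and 6.41% of all genes, with a median of 0.15. The member that did not fall went from 548.7 to 278.95 FPKM in heated shoots and stood at 297.26 and 325.84 FPKM in controls, whereas no other listed ID exceeded 20.35 FPKM in the controls of either time. The decline had begun before this interval, from a median of 7394.09 FPKM at 1 h. Return was not complete in the deposited values: at 10 h, 13 of 14 still read above their controls. Of the 14, 9 did so by at least 2-fold, beside 1.97% of all genes compared. The highest log2 ratio was 4.86. This ID, and those at 4.15, 3.16 and 1.35, had controls averaging below 1 FPKM. Their ratios therefore rest on very low control values. None of these IDs was called at 10 h in the authors' deposited table (q of 0.06, 0.45, 0.42 and 0.15). Calls of a higher level in heated shoots, by the authors' deposited table, covered 10 members at 2 h (11.9% of all genes) and 4 at 10 h (2.87%). Among those not called at 2 h, 1 member read 5221.61 FPKM in heated shoots and 0.63 FPKM in controls (q = 0.54). A missing call, here and below, is therefore not read as the absence of a difference. Several of these genes are near-identical copies, among which the authors' assignment of fragments is uncertain.

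The 3 IDs of the HSP100 and Clp ATPase list all fell, beside 15.3% of all genes compared. In heated shoots they went from 1810.48 to 10.77 FPKM, from 605.73 to 9.41 FPKM and from 1331.44 to 86.83 FPKM, log2 changes of -7.27, -5.87 and -3.92. In controls 1 of the 3 rose, from 2.65 to 7.26 FPKM, where 6.4% of all genes rose. The other 2 went from 1.38 to 2.39 FPKM and from 32.29 to 57.43 FPKM. At 10 h all 3 read above their controls, by log2 ratios of 0.33 to 1.80, and 1 of the 3 was called higher then in the authors' deposited table, where 2.87% of all genes were.

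Of the 6 IDs on the HSP90 list, 5 passed the filter and the other was listed at 0 FPKM in all 10 groups. Of these 5, 1 passed only through its heated values. All 5 fell in heated shoots, beside 15.3% of all genes, and none moved by 2-fold in controls, where 12.8% of all genes did. The member highest at 2 h went from 4118.74 to 54.19 FPKM, with 60.75 and 79.34 FPKM in controls, and so ended below its control. The authors' deposited table did not call this member at 2 h (q = 0.11). The next went from 3304.74 to 16.31 FPKM against controls of 0.9 and 0.56 FPKM. This is the member that passed the filter only through its heated values. Against these low controls its log2 ratio at 10 h was 3.47, and its q there is given as 0.0 in the authors' deposited table. The remaining 3 had log2 ratios of heated to control between -0.54 and 0.05 at 10 h.

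The list of HSP70 and BiP, which serve the cytosol, the organelles and the endoplasmic reticulum, was more mixed. In heated shoots 9 of 10 fell, with a median log2 change of -3.41, while 3 rose and 1 fell in controls. Of all genes, 15.3% fell in heated shoots, and 6.4% rose and 6.41% fell in controls, so the single fall in controls is near the background share. The largest fall went from 5924.38 to 22.84 FPKM, with 11.68 and 26.98 FPKM in controls, and was not called at 2 h (q = 0.21). The smallest among the falls went from 872.96 to 320.85 FPKM, a log2 change of -1.44, beside 119.27 and 195.9 FPKM in controls. One listed ID fell in both arms, from 105.28 to 21.43 FPKM in heated and from 107.77 to 37.58 FPKM in control shoots, and had not differed at 2 h in the authors' deposited table (q = 0.99). The single ID that did not fall stood at 101.19 and 140.67 FPKM in heated shoots and at 83.65 and 85.26 FPKM in controls. At 10 h, 6 of the 10 read above their controls and 4 below, with a median log2 ratio of 0.10.

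Counted together, the 33 IDs of the 4 chaperone lists summed to 64503.4 FPKM in heated shoots at 2 h and to 1483.12 FPKM at 10 h, beside 1166.04 and 1264.35 FPKM in controls. As a share of the FPKM summed over distinct rows, 767855 in heated shoots at 2 h and 808091 at 10 h, this was 8.40% and 0.184%. The controls were at 0.176% and 0.186%, so at 10 h the share was near that of the controls while the sum was still above theirs.

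**Figure D2:**
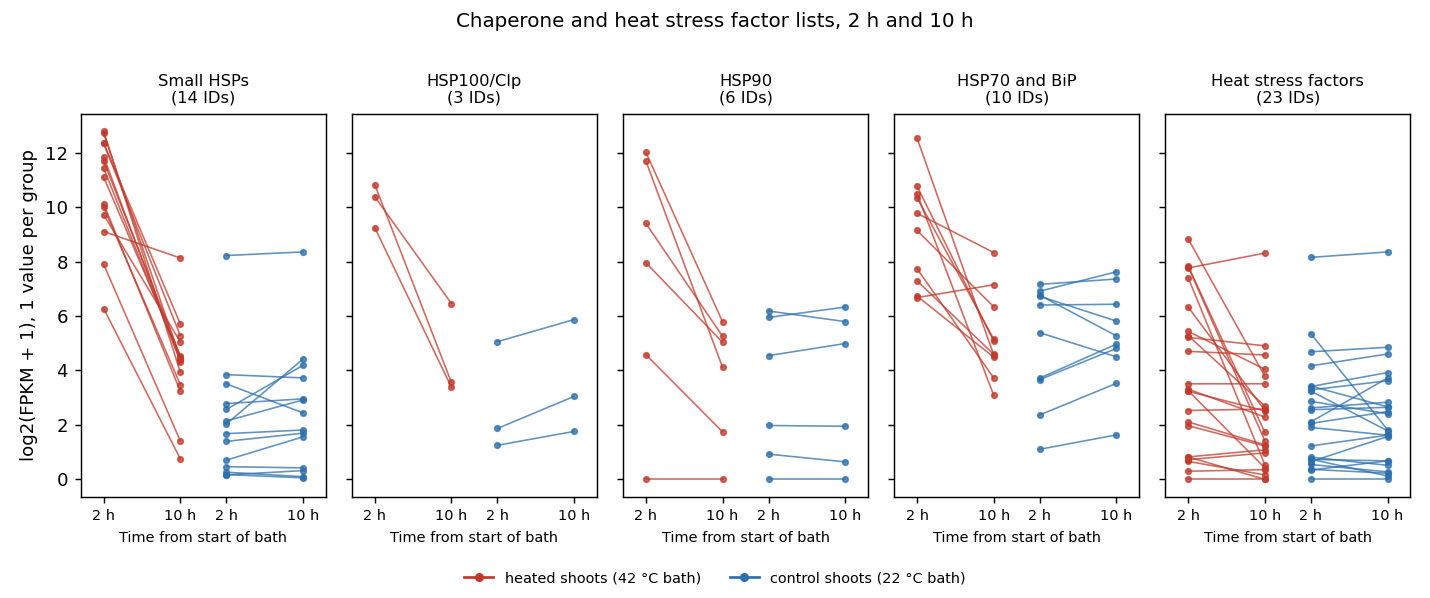
Log2(FPKM + 1) of every listed ID at 2 h and 10 h, 1 line per ID and 1 value per group, for 5 lists, in heated shoots (red) and control shoots (blue). In heated shoots 13 of 14 small heat shock proteins, all 3 HSP100 and Clp members, 5 of 6 HSP90 and 9 of 10 HSP70 and BiP members fell, against 9 of 23 heat stress factors.

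The heat stress transcription factor list split. Of 23 listed IDs 18 passed the filter, and the other 5 had means of at most 0.73 FPKM. Over all 23, 9 fell and none rose in heated shoots, where 15.3% of all genes fell and 14.8% rose. In controls 2 fell and 1 rose, near the background shares of 6.41% and 6.4%. The 4 largest falls were each over 5 on the log2 scale: 1 went from 453.68 to 12.82 FPKM (controls 9.63 and 14.15 FPKM), another from 227.83 to 2.3 FPKM (controls 8.47 and 2.44 FPKM), another from 223.3 to 1.67 FPKM (controls 0.66 and 0.6 FPKM) and another from 168.56 to 0.45 FPKM (controls 0.29 and 0.17 FPKM). In contrast, the most abundant member at 10 h stood at 216.14 and 316.14 FPKM in heated shoots and at 283.55 and 325.58 FPKM in controls, within 2-fold among these 4 values. Before this interval, at 1 h, it had read 789.05 FPKM in heated shoots and 356.85 FPKM in controls. Another member fell in both arms, from 37.83 to 5.47 FPKM in heated shoots and from 39.85 to 2.53 FPKM in controls. Its log2 changes were -2.59 and -3.53. Of the 18, 3 reached the 1 FPKM mean because of their heated values alone. All 3 are among the 9 that fell, including the falls from 223.3 and from 168.56 FPKM. Their falls are therefore not independent of the filter. Of these 3 IDs, 2 were among the 7 that the authors' deposited table called higher at 2 h (11.9% of all genes). By the authors' deposited table none of the 18 was higher or lower at 10 h, near the shares of all genes, 2.87% and 1.8%. The log2 ratios ran from -1.44 to 0.87.

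The clock list moved in both arms. All 11 IDs passed the filter. In heated shoots 7 fell and 2 rose, beside 15.3% and 14.8% of all genes. In controls 7 fell and 1 rose, beside 6.41% and 6.4%, so that in both arms the rises are near the background share. The steepest heated fall went from 421.51 to 3.82 FPKM, beside 486.94 and 4.19 FPKM in controls. Next came a member that went from 134.6 to 0.85 FPKM, beside 226.46 and 0.91 FPKM, and another that went from 61.89 to 0.46 FPKM, beside 93.35 and 0.39 FPKM. The strongest rise was from 10.6 to 155.17 FPKM in heated shoots and from 9.04 to 292.59 FPKM in controls. Each of these 4 IDs moved the same way in both arms.

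At 2 h the authors' deposited table called 1 clock ID higher and 2 lower in heated shoots, where 11.9% and 6.99% of all genes were. The single higher call is near the background share. One of the lower IDs read 15.24 FPKM in heated shoots and 29.95 FPKM in controls at 2 h (q = 0.03). The member with the widest gap went from 84.86 to 14.99 FPKM in heated shoots and from 205.77 to 9.81 FPKM in controls, changes that differed by 1.83 on the log2 scale. By the authors' deposited table it was lower in heated shoots at 2 h (a q of 0.0 as printed) and not called at 10 h (q = 0.18). One ID went from 61.75 to 39.9 FPKM in heated shoots while the controls read 32.23 and 40.42 FPKM, and its q values in the authors' deposited table were 0.0 as printed at 2 h and 0.98 at 10 h. At 10 h no clock ID was called in either direction, and log2 ratios of heated to control ran from -0.91 to 0.56. On the flowering time list, genes that read day length, 3 of 5 IDs had means of at most 0.004 FPKM. Of the other 2, 1 went from 1.58 to 7.62 FPKM in heated shoots (3.87 and 8.18 FPKM in controls) and 1 from 0.95 to 0.06 FPKM (1.06 and 0.3 FPKM).

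Light-harvesting chlorophyll a/b-binding proteins form the antenna of the photosystems, and the label shoot was checked on their transcripts, which were present at up to 5348.22 FPKM in these 4 groups. Marker lists of root and seed could not be formed without gene names. The median of the 14 listed IDs went from 1501.2 to 172.36 FPKM in heated shoots and from 2825.82 to 263.79 FPKM in controls. In heated shoots 9 fell and 2 rose, beside 15.3% and 14.8% of all genes, and in controls 11 fell and 2 rose, beside 6.41% and 6.4%. The rises in heated shoots are at the background share. The steepest fall went from 3777.84 to 22.04 FPKM in heated shoots and from 5348.22 to 36.29 FPKM in controls. At 10 h, 11 of the 14 IDs read below their controls. The median log2 ratio of heated to control was -0.69 at 2 h and -0.55 at 10 h, so the list already read lower in heated shoots at 2 h. The authors' deposited table called none of the 14 at 2 h and 3 lower in heated shoots at 10 h (1.8% of all genes). The share of all FPKM taken by the list went from 3.04% to 0.627% in heated shoots and from 5.72% to 0.911% in controls.

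Rubisco small subunits, the nuclear-encoded part of the carbon-fixing enzyme, went the other way. The 4 listed IDs, very similar copies among which fragments may be split, went from 5342.79 to 25803.9 FPKM, from 7568.1 to 17356.3 FPKM, from 1774.8 to 9408.71 FPKM and from 677.77 to 2501.87 FPKM in heated shoots. The controls went from 6665.76 to 11692.1 FPKM, from 8158.54 to 11780.7 FPKM, from 3028.9 to 5721.17 FPKM and from 996.49 to 1308.98 FPKM. All 4 rose in heated shoots (14.8% of all genes did) and none rose by 2-fold in controls. Heated shoots started below the controls and ended above them for each ID, and the change was larger in heated shoots by 0.67 to 1.49 on the log2 scale. The authors' deposited table called none of them at either time, with q of 0.53 to 0.76 at 10 h. The fifth ID of that list, written down as Rubisco activase, was left out of the counts because a deposited fold change departed from its FPKM values. It read 803.4 and 12118 FPKM in heated shoots and 833.11 and 10200.9 FPKM in controls.

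**Figure D3:**
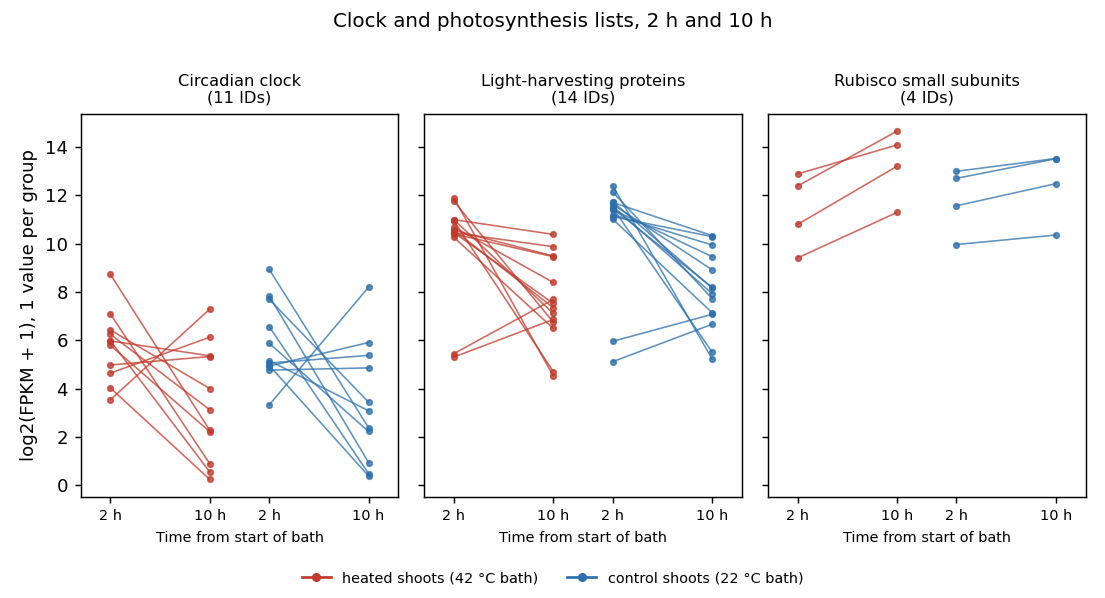
Log2(FPKM + 1) of every listed ID at 2 h and 10 h, 1 line per ID and 1 value per group, for the clock, light-harvesting and Rubisco small subunit lists, in heated shoots (red) and control shoots (blue). Most clock and light-harvesting lines fall in both arms, 3 of 11 clock IDs differ in their change by at least 2-fold between the arms, and the 4 Rubisco lines climb more steeply in heated shoots.

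How near the heated shoots came to the controls was read from genes grouped by their heated-to-control ratio at 2 h, using the 10 h columns, which took no part in the grouping. At 2 h, 11.2% of the genes compared stood at least 2-fold above the controls and 6.07% at least 2-fold below. For the 354 genes at least 8-fold above the controls, the median log2 ratio was 3.87 at 2 h and 0.12 at 10 h. By 10 h, 304 of them (85.9%) lay within 2-fold of the controls, while 45 still exceeded them by 2-fold or more and 5 lay below them by as much. Their heated median went from 83.69 to 5.45 FPKM, and their control median from 3.16 to 4.17 FPKM. The 2163 genes that had been 2-fold to 8-fold higher had a median log2 ratio of 0.05 at 10 h, with 94.4% within 2-fold. Among the 18682 genes within 2-fold at 2 h, 97.6% were within 2-fold at 10 h as well.

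Genes held below the controls at 2 h also moved towards them. In the 1353 genes that had been 2-fold to 8-fold lower, the median log2 ratio went from -1.33 at 2 h to -0.25 at 10 h. Of these, 161 (11.9%) were still at least 2-fold lower at 10 h, beside 1.65% of all genes compared, and 34 were at least 2-fold higher. In the class 2-fold to 8-fold higher at 2 h, 4.11% were still at least 2-fold higher, beside 1.97% of all genes. The lower class went from a heated median of 4.26 FPKM to 9.34 FPKM, while its controls went from 13.37 to 11.95 FPKM. The difference between these shares was not tested. Part of the return is fixed by the grouping itself, since a 2 h value that was extreme by error puts a gene into a class.

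**Figure D4:**
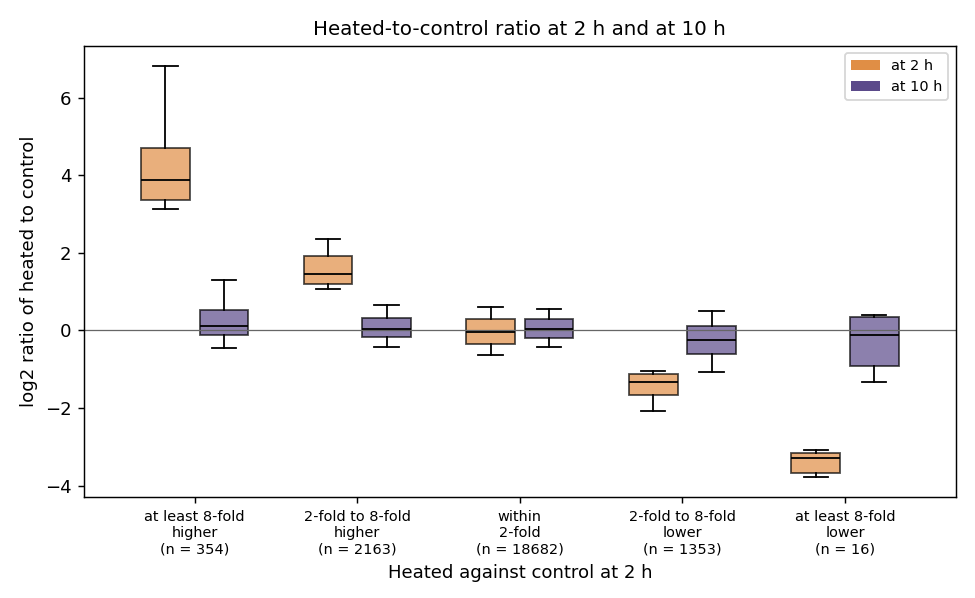
Log2 ratio of heated to control shoots at 2 h (orange) and at 10 h (purple) for genes grouped by that ratio at 2 h. Boxes span the quartiles, lines mark medians and whiskers run from the 10th to the 90th percentile of genes. At 10 h every class has its median within 0.25 of 0, with the lower classes remaining below it.

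Grouping by the authors' own calls at 2 h draws on the same 2 h values, so part of the return is again fixed by the grouping. For scale, 15.3% of all genes compared fell and 14.8% rose in heated shoots. At 10 h the authors' deposited table called 2.87% of all genes higher and 1.8% lower. Of the 2679 genes called higher at 2 h in the authors' deposited table, 1777 fell in heated shoots by 10 h and 40 rose. Their median went from 26.88 to 9.07 FPKM in heated shoots, beside 8.04 and 8.46 FPKM in controls. Of these genes, 151 were also higher at 10 h in the authors' deposited table, and 31 were lower, the latter below the share of all genes. Of the 1578 genes called lower at 2 h (6.99% of all), 695 rose in heated shoots by 10 h and 103 fell. Their median went from 6.53 to 13.06 FPKM, beside 17.45 and 15.82 FPKM in controls. The authors' deposited table had 209 of these genes as lower at 10 h and 49 as higher. The other 18311 genes, not called at 2 h, included 447 called higher and 166 called lower at 10 h in the authors' deposited table. Both counts lie below the shares of all genes.

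The change in heated shoots minus the change in controls equals the 10 h ratio of heated to control minus the 2 h ratio on the log2 scale. By this measure 2687 genes (11.9%) fell further or rose less in heated shoots by at least 2-fold, and 1963 (8.7%) did the reverse. The lists described above are set beside these shares of all genes. All 14 small heat shock proteins, all 3 HSP100 and Clp members and all 5 expressed HSP90 members lay on the lower side by at least 2-fold. So did 8 of 10 HSP70 and BiP members and 8 of the 18 heat stress factors that passed the filter. On the clock list 2 of 11 lay on the lower side and 1 on the upper side, both near the shares of all genes. Of the light-harvesting list 1 of 14 lay on the upper side, near the share of all genes, and none on the lower. Of the Rubisco small subunits 3 of 4 lay on the upper side.

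Agreement of whole profiles followed the same course. Pearson's r across the 22568 genes, on log2 values with 1 FPKM added, was 0.85 between heated and control shoots at 2 h and 0.97 at 10 h. For comparison, heated shoots at 2 h and 10 h were at 0.78, and control shoots at the same 2 times were at 0.90. The heated 10 h profile was thus closer to the 10 h controls than the controls of 2 h and 10 h were to each other.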

How the data were processed

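RNA from whole shoots was sequenced on an Illumina instrument, per the labels' protocols. Trimming, alignment and quantification tools named in the submitters' processing notes are cutadapt, TopHat2 and Cufflinks, on IRGSP-1.0; no versions were stated. The authors deposited FPKM values with 1 column per group, so both libraries of a group had been combined, with a log2 fold change (used as a score, since it exceeds the usual range where a column is 0) and a q-value per time, deposited by the authors to 2 decimals. The planned limma model and set descriptions by annotation (38 of 47 lists) could not be run, since the table holds no value per library and 0 IDs matched the reference (ASM3414082v1).

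The table has 48683 rows for 37248 gene IDs, 8490 of them on more than 1 row; the row of highest mean FPKM was kept. A mean of at least 1 FPKM left 22704 IDs, and 136 were left out because a deposited log2 fold change departed by over 0.1 from the FPKM ratio where both columns were at least 1 FPKM. Of the 22568 compared, 2861 share their row with another ID. Changes are log2 with a pseudocount of 1, computed with pandas 2.3.3 and Python 3.11.15 and tested on simulated data. Heat calls are the authors' q below 0.05. The members and lists were chosen with earlier results of these data known. Single IDs named are the 2 largest rises and 2 largest falls; names were not available for more, and the 9 ID lists are the small heat shock protein, HSP70 and BiP, HSP90, HSP100 and Clp, heat stress factor, clock, flowering time, light-harvesting and Rubisco lists. Depth is unknown, so no interval or floor is given.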

Additional observations from a re-analysis of the deposited data

Results flagged for a closer look

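A total of 67 genes fell by at least 2-fold in heated shoots and rose by at least 2-fold in controls between 2 h and 10 h, and 22 genes did the opposite. The 67 were 4.64% of the genes that rose in controls, while 15.3% of all genes compared fell in heated shoots. The 22 were 1.52% of the genes that fell in controls, while 14.8% of all genes compared rose in heated shoots. Both shares lie below those of all genes. The difference between the arms was not tested, since each arm has 1 deposited value per time. The 67 had a median of 75.89 FPKM at 2 h and 12.2 FPKM at 10 h in heated shoots, against 4.18 and 14.49 FPKM in controls, so the arms met at 10 h. The 22 had medians of 2.35 and 9.58 FPKM in heated shoots, against 15.05 and 4.14 FPKM in controls, and had crossed by 10 h.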

How the results depend on the processing

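No paired analysis was possible because the table holds 1 value per group, and for the same reason no replicate could be left out. Of 152 recomputed values, 145 kept their direction and stayed within 1.5-fold. Falls in heated shoots ranged from 2508 genes with a mean of at least 5 FPKM to 4176 with a pseudocount of 0.1, and rises from 2532 to 4125; in controls falls ranged from 1095 to 2073 and rises from 1079 to 1968. Counting each distinct row once, and keeping the rows at odds with the deposited fold change, were added after seeing the data. With rows summed per gene ID, the median of the clock list was -2.42 in heated shoots and -2.08 in controls, against -3.12 and -3.65; the cause was not tested. With a pseudocount of 0.1 the flowering time median turned from 0.43 to -0.26 in heated shoots and from 0.13 to -0.24 in controls, over 2 IDs of low FPKM; no member has a mean of 5 FPKM. At q below 0.01 the authors' deposited table called 238 genes higher and 181 lower at 10 h, against 647 and 406, and 845 lower at 2 h, against 1578. Rescaling each group by its median ratio kept 46.9% of the heated changes as rises, against 49.2%. Differences between single deposited values cannot be set against replicate error.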

Other observations

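By the 2-fold threshold, some genes moved with time in controls alone; the difference between the arms was not tested. Of the 1447 genes that fell with time in controls, 546 stayed within 2-fold in heated shoots, with a median of 8.34 FPKM at 2 h and 6.05 FPKM at 10 h in heated shoots, against 14.39 and 5.13 FPKM in controls. Of the 1444 that rose in controls, 385 stayed within 2-fold in heated shoots, with medians of 9.67 and 13.47 FPKM in heated shoots against 5.15 and 14.5 FPKM in controls. In both sets the arms differed more at 2 h than at 10 h.

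The 2324 genes that rose past 2-fold in heated shoots alone had control medians of 12.07 and 17.34 FPKM and heated medians of 7.5 and 21.49 FPKM, so the controls had moved the same way by less. The 2503 that fell past 2-fold in heated shoots alone had heated medians of 19.1 and 4.81 FPKM against 6.18 and 5.44 FPKM in controls. Members of these sets were chosen by the same values, which are given as a description.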
